A study of Mus musculus with 8 samples.

Results

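The matrix cross-linking enzymes described here are the 5 mouse lysyl oxidase genes Lox, Loxl1, Loxl2, Loxl3 and Loxl4 and the transglutaminase gene Tgm2. They were chosen by name, all 6 were found among the 55414 genes of the count table, and all 6 were among the 15150 genes with enough counts to be tested. Lox (ENSMUSG00000024529) lies on chromosome 18, Loxl1 (ENSMUSG00000032334) on 9, Loxl2 (ENSMUSG00000034205) on 14, Loxl3 (ENSMUSG00000000693) on 6, Loxl4 (ENSMUSG00000025185) on 19 and Tgm2 (ENSMUSG00000037820) on 2. Their transcripts were measured by RNA sequencing in cultured cardiac fibroblasts, the stromal cells that lay down the collagen matrix of the heart. The question was how these transcripts differ when the cells are made to overexpress Has2, the enzyme that synthesises the matrix polysaccharide hyaluronan.

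Control cultures received an adenovirus for green fluorescent protein (GFP), and treated cultures an adenovirus for Has2, with 4 libraries for each virus. Replicates 1 and 2 of both groups are female and replicates 3 and 4 male, and libraries that share a replicate number also share a preparation identifier. The cells came from C57BL/6J mice that the labels call wild type, although the protocol names animals with a floxed Has2 gene, and no age is given. All cultures were at passage 2, were starved of serum for 24 h, met virus for 5 h and were then kept for 48 h with basic FGF and TGF-beta, both listed at 20 ng/mL. TGF-beta, a cytokine that drives fibroblasts towards the matrix-producing myofibroblast state, was therefore present in the control cultures too. Each group holds both sexes, so its cultures did not all come from 1 animal. Whether cultures of the same sex within a group were grown from different animals is not said in the labels. A p-value here covers the spread between these libraries only, which within a sex may be technical.

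Collagen and elastin gain their strength after secretion, when their chains are joined by covalent bonds. Lysyl oxidases are secreted, copper-dependent enzymes that turn lysine side chains into aldehydes, which then condense into cross-links between neighbouring chains. Transglutaminase 2 forms another kind of bond, between glutamine and lysine side chains, with fibronectin among its substrates. Cross-linked collagen is a known feature of the stiff, fibrotic heart.

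The 5 lysyl oxidases share a catalytic end and differ in the part before it, where Loxl2, Loxl3 and Loxl4 carry scavenger receptor cysteine-rich domains. The stretches printed next show how alike the genes are at the copper site, since near-identical copies could share sequencing reads. Each is the 57-base coding stretch around 3 histidine codons (CAT or CAC), each separated from the next by 1 codon, and the capitals mark that run of codons. The sequences and coordinates come from the GENCODE M21 transcripts on GRCm38, a build other than the GRCm39 of the counts, and every stretch crosses an exon junction, so that its coordinates span an intron.
Loxl1: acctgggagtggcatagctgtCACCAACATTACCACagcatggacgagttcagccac
Loxl2: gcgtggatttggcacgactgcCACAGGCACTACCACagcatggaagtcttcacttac
Loxl3: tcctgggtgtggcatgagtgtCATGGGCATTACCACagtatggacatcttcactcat
Loxl4: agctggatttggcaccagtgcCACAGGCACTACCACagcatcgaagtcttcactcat

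The Loxl1 stretch lies in exons 3 and 4 of 7 (chr9:58293699-58294384, minus strand) and that of Loxl2 in exons 10 and 11 of 14 (chr14:69682313-69689058, plus strand). The Loxl3 stretch lies in exons 10 and 11 of 14 (chr6:83049992-83050146, plus strand) and that of Loxl4 in exons 11 and 12 of 15 (chr19:42598786-42599902, minus strand). Loxl2 and Loxl4 shared 86% of these 57 bases, Loxl1 and Loxl4 64.9%, and Lox and Loxl1 94.7%. Over the whole annotated transcripts, however, the longest run of identical bases between any of the 15 pairs of the 6 genes was 32 bases, between Lox and Loxl1. Reads longer than that run, without errors, belong to 1 of the 6 genes only. Exons of other genes on the opposite strand overlap 11.6% of the Loxl3 exons (Htra2, 36.4 to 59.4 CPM) and 8.03% of the Tgm2 exons (Rprd1b, 21 to 28.6 CPM). The strand setting of the counting is not given in the sources used here. Whether reads in those overlaps were kept, lost or taken from the neighbours is therefore not known for Loxl3 and Tgm2.

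Libraries held 46981231 to 55795187 counts. CPM, the unit used below, is the count scaled to the effective library size and expressed per 1e+06. Has2 itself was at 7.36 to 25.2 CPM in the GFP libraries and at 3209 to 9533 CPM in the Has2 libraries, the male ones being the lower of these. Xist, expressed from the inactive X chromosome, was at 52.5 to 163 CPM in the libraries labelled female and at most 0.102 CPM in those labelled male. The Y-linked gene Ddx3y was at most 0.254 CPM in the female libraries. In the male ones it was at 46.3 and 50.8 CPM with the GFP virus and at 15.1 and 17.7 CPM with the Has2 virus. The cause of that lower level was not tested. Summed over 8 fibroblast markers, which include Col1a1, Pdgfra and Dcn, the libraries held 13700 to 20000 CPM, and over 8 macrophage markers 824 to 2250 CPM. Cardiomyocyte markers summed to at most 9.02 CPM, with Myl7 at 0 counts in every library, endothelial markers to at most 33.2 CPM, and markers of smooth muscle and pericytes to at most 13.5 CPM. One library stood apart: GFP replicate 1 held 735 CPM of 8 liver genes such as Alb, against 2.59 to 4.51 CPM elsewhere. In both male pairs the change of a transcript also followed its GC content (Spearman's rho 0.66 and 0.64 across 15123 genes, which are not independent replicates), whereas in the female pairs rho was -0.22 and -0.17. With transcript length rho was 0.25 and 0.49 in the female pairs of replicates 1 and 2, and -0.097 and -0.36 in the male pairs of replicates 3 and 4.

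Lox, Loxl1, Loxl2 and Loxl3 were among the abundant transcripts of these cells, and Tgm2 and Loxl4 were far lower. Levels were compared between genes as CPM per kilobase of the longest transcript. Loxl1, whose product is known for its part in elastic fibres, stood at 336 ± 58.2 CPM per kilobase (SD, n = 8), and Lox, the founding member of the family, at 308 ± 111. These levels exceed those of 98.9% and 98.7% of the tested genes. Loxl2, which also acts on basement membrane collagen, was at 124 ± 29.7 CPM per kilobase and Loxl3 at 98.8 ± 18.8. Tgm2 followed at 24.3 ± 11.8 and Loxl4 at 8.86 ± 1.97 CPM per kilobase (SD, n = 8).

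Lox and Loxl1 did not differ in level beyond their spread. Loxl1 was the higher of the pair in 5 of 8 libraries, namely all 4 male ones and GFP replicate 2, and the ratio of Lox to Loxl1 ran from 0.458 in Has2 replicate 3 to 1.51 in Has2 replicate 1. The next neighbours, Loxl2 and Loxl3, overlapped too, with Loxl2 higher in 7 of 8 libraries. With the length of all exons merged, Loxl2 was the higher in every library (1.05 to 2.06 times). Every library had Lox above Loxl2 (1.46 to 3.12 times), Loxl3 above Tgm2 (2.41 to 5.7 times) and Tgm2 above Loxl4 (1.88 to 3.85 times). This order was the same with the GFP and with the Has2 virus.

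**Figure D1:**
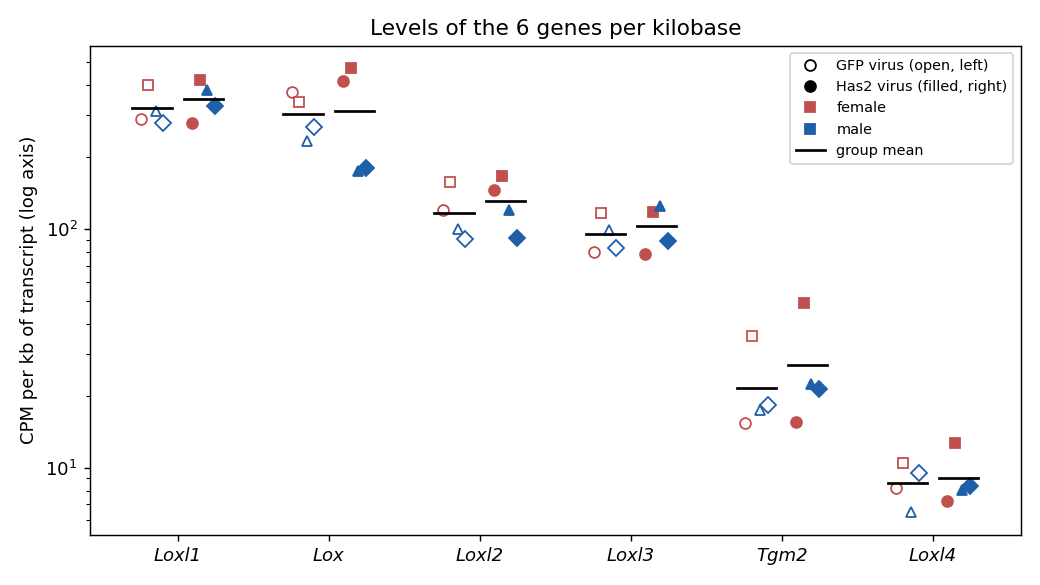
Level of each gene in CPM per kilobase of transcript (log axis), 1 point per library, open on the left for the GFP virus and filled on the right for the Has2 virus, with the group mean as a line. Lox and Loxl1 overlap at the top at 175 to 472 CPM per kilobase, and Loxl4 is lowest at 6.48 to 12.7.

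Across the libraries Lox ran with Loxl2 more than with Loxl1 or Loxl3. Over the 8 libraries its log2 CPM had a Pearson's r of 0.019 with Loxl1 and -0.17 with Loxl3, whereas Loxl1 and Loxl3 had 0.94, Loxl1 and Tgm2 0.91, and Lox and Loxl2 0.74. These are descriptions over 8 libraries that come in 4 pairs of shared preparation. Of 10292 genes with a mean of at least 5 CPM, those most like Lox were Fchsd2 (r = 0.996, rho = 1) and the chemokine Cxcl5 (r = 0.995, rho = 0.976), with transcripts of 45.7% and 41.3% GC beside 43.9% for Lox. Loxl1 was closest to Plppr2 and Gpr108 (both r = 0.994), Loxl2 to Serpina3n (0.986) and Sod3 (0.985), Loxl3 to the matrix metalloproteinase Mmp2 (0.987) and to Bmp1 (0.982), the protease that releases active Lox. Loxl4 was closest to Tbccd1 (0.971) and Slc6a9 (0.96), and Tgm2 to Htra3 (0.994) and Slit3 (0.989).

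The comparison of the Has2 virus with the GFP virus called none of the 6 genes. It was made with edgeR's quasi-likelihood test on all 15150 genes, with the replicate number as a block and a Benjamini-Hochberg adjusted p under 0.05 as the threshold. Over all genes 0.00660% were called, which is Has2 alone, while 1134 genes had an unadjusted p under 0.05. Of the members 5 had a positive fold change, with a median of 0.12 on the log2 scale, against -0.02 over all genes tested.

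Lox, the lysyl oxidase of collagen and elastin, was at 1776, 1610, 1110 and 1264 CPM in GFP replicates 1, 2, 3 and 4 and at 1986, 2240, 830.3 and 858 CPM in Has2 replicates 1, 2, 3 and 4. The values of the groups overlapped: with the Has2 virus the female libraries were the highest of the 8 and the male ones the lowest. The group means were 1440 ± 306 and 1479 ± 740 CPM (SD, n = 4), and the model put the change at -0.09 on the log2 scale (95% interval -0.53 to 0.35, SE 0.19; adjusted p = 0.911, edgeR). The sign turned with no replicate block, to 0.04 (edgeR adjusted p = 1), and after a trend of GC content and transcript length was taken out, to 0.10 (0.687).

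Tgm2 had the smallest p of the members. It stood at 55.3, 128, 62.6 and 65.7 CPM in GFP replicates 1, 2, 3 and 4, and at 55.6, 175, 80.4 and 76.8 CPM in Has2 replicates 1, 2, 3 and 4. Both libraries of replicate 2 were high and the groups overlapped. In replicate 1 the ratio was 1 to the precision given, and in replicates 2, 3 and 4 Tgm2 was 1.37, 1.28 and 1.17 times as high with the Has2 virus. The fitted change was 0.26 on the log2 scale (95% interval 0.01 to 0.51, SE 0.11; unadjusted p = 0.0424, adjusted p = 0.648, edgeR), from means of 77.8 ± 33.5 and 97.0 ± 53.3 CPM (SD, n = 4). Without Has2 replicate 2, in the fit with no block, it was -0.13, but the high GFP library of that pair was kept there. Without both libraries of replicate 2, with the block, it was 0.20. The sign stayed positive in 22 of 23 other ways of processing. The cultures of replicate 2 also had the lowest macrophage marker sums, 879 and 824 CPM against 1540 to 2250 CPM in the others, and the part of this in the Tgm2 level was not tested.

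Loxl1 was measured at 951, 1329, 1032 and 917 CPM in GFP replicates 1, 2, 3 and 4 and at 913, 1391, 1260.0 and 1078 CPM in Has2 replicates 1, 2, 3 and 4. It was higher with the Has2 virus in 3 of 4 pairs, and the groups overlapped (fitted log2 change 0.13, 95% interval -0.11 to 0.37, SE 0.10). Loxl2 was at 638, 835, 529 and 482 CPM in GFP replicates 1, 2, 3 and 4 and at 777, 885, 636 and 488 CPM in Has2 replicates 1, 2, 3 and 4. All 4 of its pairs were higher with the Has2 virus, by 1.22, 1.06, 1.2 and 1.01 times (fitted log2 change 0.16, 95% interval -0.06 to 0.39, SE 0.09). Loxl2 and Tgm2 were thus higher in 4 of 4 pairs, as were 9.16% of all genes tested.

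Loxl3 was at 328, 480.0, 407 and 342 CPM in GFP replicates 1, 2, 3 and 4 and at 322, 482, 513 and 366 CPM in Has2 replicates 1, 2, 3 and 4, with overlap between the groups. The change fitted for it was 0.10 on the log2 scale (95% interval -0.13 to 0.33, SE 0.10). Loxl4, the least abundant member, was at 30.6, 39.1, 24.2 and 35.4 CPM in GFP replicates 1, 2, 3 and 4 and at 27.0, 47.4, 30.0 and 31.3 CPM in Has2 replicates 1, 2, 3 and 4. Its pairs were split evenly between the directions, and the fitted change was 0.06 (95% interval -0.24 to 0.36, SE 0.13), which turned to -0.03 after that trend was taken out. The edgeR adjusted p of Loxl1, Loxl2, Loxl3 and Loxl4 ran from 0.657 to 0.913. As folds, the 95% intervals of the 6 genes lay between 0.695 and 1.43 times the GFP level. Without both libraries of replicate 1, the number with liver transcripts, the log2 changes were -0.14 for Lox, 0.23 for Loxl1, 0.15 for Loxl2, 0.18 for Loxl3, 0.17 for Loxl4 and 0.38 for Tgm2, with 0 of the 6 called. In 0 of the 6 genes were the GFP and the Has2 libraries without overlap, which was so for 2.38% of all genes tested.

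Exact two-sided permutation tests of the mean log2 CPM, 4 libraries against 4, gave p = 0.486 to 0.857 for the 6 genes, where the smallest possible is 0.0286. Exact paired tests gave 0.125 for Loxl2 and Tgm2, the smallest that 4 pairs allow, and 0.25 to 0.875 for the others.

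**Figure D2:**
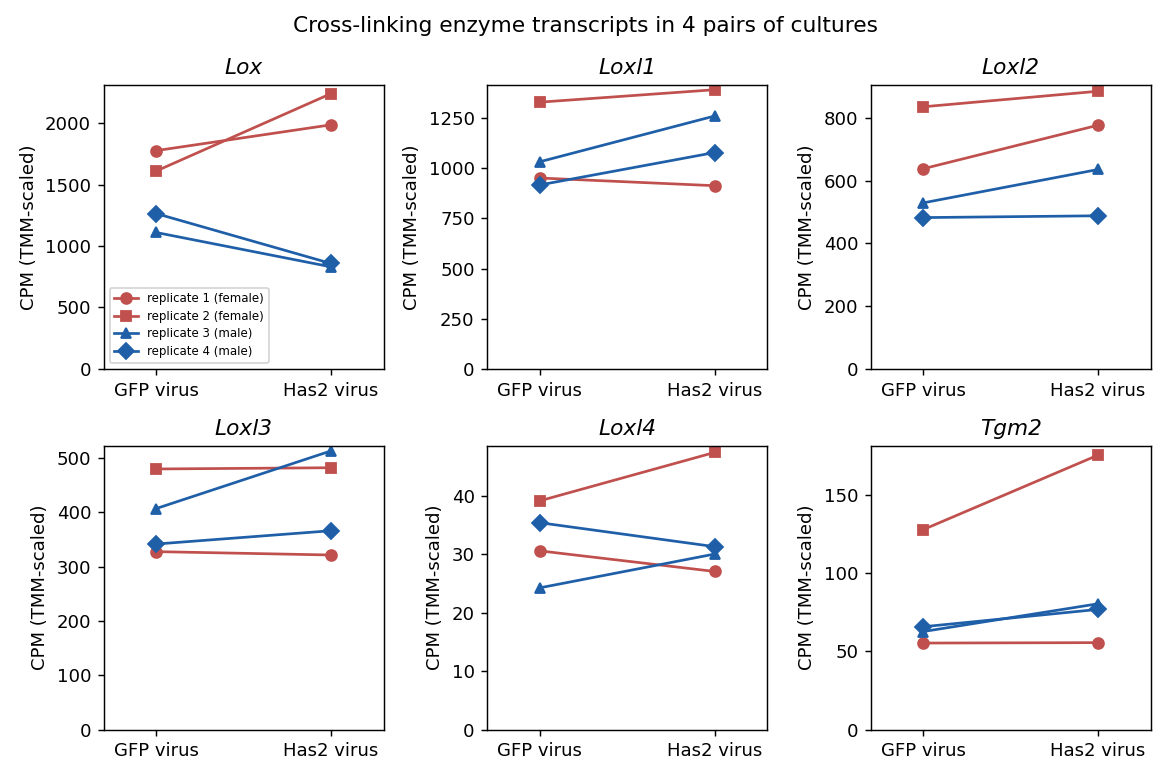
CPM of each gene (linear axis from 0) in the 4 pairs of cultures, with a line from the GFP to the Has2 library of a pair, red for female and blue for male. Lox goes up in both female pairs and down in both male pairs, while Loxl2 is higher with the Has2 virus in all 4 pairs.

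The response of Lox differed between the female and the male pairs. In replicates 1 and 2, which are female, Lox was 1.12 and 1.39 times as high with the Has2 virus as with the GFP virus, and in the male replicates 3 and 4 it was 0.748 and 0.679 times as high. A change for each sex was taken from 1 fit to all 8 libraries, so that the SE rests on a spread shared by both sexes. The log2 change was 0.32 in females (SE 0.11; edgeR adjusted p = 0.0929) and -0.49 in males (SE 0.11; edgeR adjusted p = 0.0062). The female pairs called 0 of the 6 members and 7.23% of all genes, and the male pairs called Lox alone of the members and 24.9% of all genes. The male minus female difference was -0.81 (SE 0.15; 95% interval -1.14 to -0.48; edgeR adjusted p = 0.00249). Of all genes tested 29.5% were called for this difference, most of them (17.97% of genes) with the lower fold change in males, and 15.9% were higher in both female and lower in both male pairs as Lox was. A change like that of Lox was therefore common in these libraries. Sex and the series of the preparation identifiers go together and cannot be told apart. Has2 itself was also lower in the male Has2 libraries (3209 and 4860 CPM) than in the female ones (9533 and 8406 CPM). The part of this in the Lox difference was not tested.

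The difference in Lox was not called once a trend of GC content and transcript length had been removed from every library. Lox has the lowest GC content of the members, 43.9%, while the others have 51.7% to 61%. The trend at the GC content and length of Lox came to 0.07, 0.13, -0.45 and -0.47 on the log2 scale in the pairs of replicates 1, 2, 3 and 4. The measured changes of Lox were 0.16, 0.48, -0.42 and -0.56, so that 0.09, 0.34, 0.03 and -0.09 were left. With the trend removed the fitted changes were 0.22 in female pairs (edgeR adjusted p = 0.191) and -0.03 in male pairs (0.898), where 2.69% and 12.1% of all genes were called. The difference was -0.25 (SE 0.12; edgeR adjusted p = 0.239), when 10.2% of all genes were still called. With no replicate block the difference was -0.81 with an edgeR adjusted p = 0.18, and 0 of 15150 genes were called (2014 at an unadjusted p under 0.05). DESeq2 with no block called 675 genes, Lox among them (-0.82, DESeq2 adjusted p = 0.0209). Without both libraries of replicate 1, which include the one with liver transcripts, the Lox difference was -0.95, with 1 female pair left.

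Among the other members 0 were called for the difference between the sexes. Loxl1 had a fitted log2 value of 0.00 in females and 0.26 in males (difference 0.26, SE 0.13; edgeR adjusted p = 0.168), and Loxl3 -0.01 and 0.22 (difference 0.23, SE 0.13; edgeR adjusted p = 0.226). For Loxl2 the difference was -0.04 (95% interval -0.36 to 0.27), for Loxl4 0.01 (-0.41 to 0.43) and for Tgm2 0.06 (-0.28 to 0.40). With the trend removed Loxl1 stood at 0.07 and 0.00 and Loxl3 at 0.00 and 0.07 in female and male pairs.

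**Figure D3:**
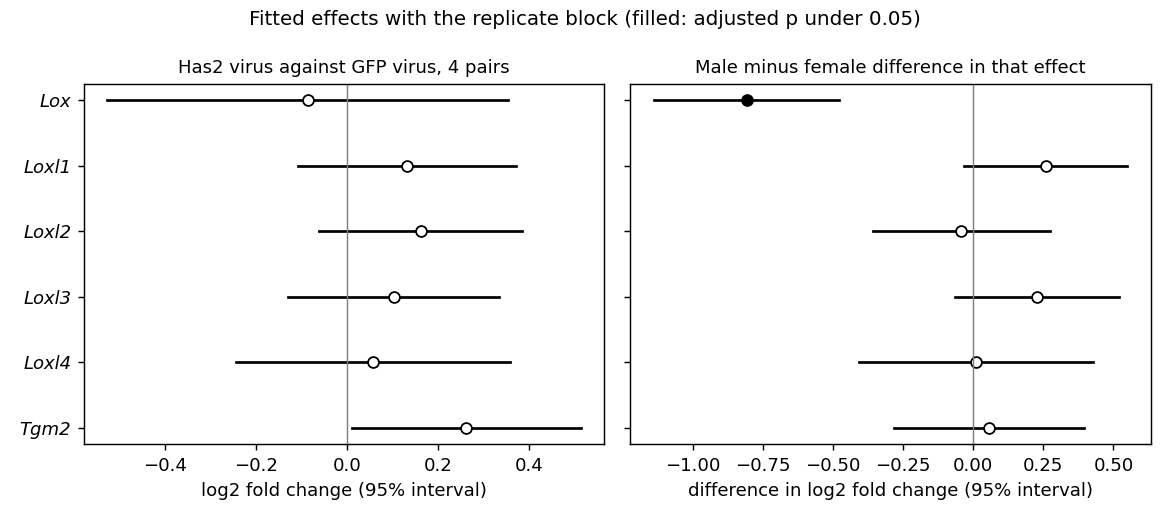
Fitted log2 fold change of the Has2 virus against the GFP virus (left) and the male minus female difference in that change (right), each point with its 95% interval, from fits with the replicate block over 15150 genes. Only the difference in Lox, -0.81, is called.

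**Figure D4:**
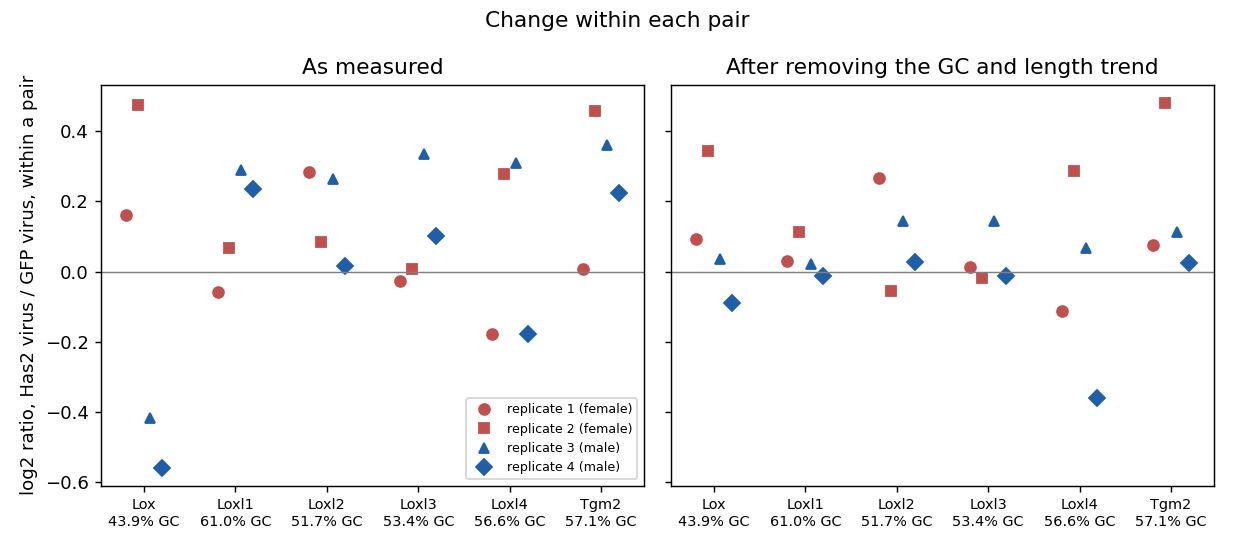
Log2 ratio of the Has2 to the GFP library within each pair, as measured (left) and after removal of the GC and length trend (right), with the GC content of each transcript under its name. The male points of Lox move from -0.42 and -0.56 to 0.03 and -0.09.

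The mix of lysyl oxidase transcripts differed between the cultures. Of the summed CPM per kilobase of the 5 genes, Lox made up 43% and 33.1% in GFP replicates 1 and 2 and 45.2% and 39.7% in Has2 replicates 1 and 2. In the male cultures it made up 31.1% and 36.6% with the GFP virus and 21.6% and 25.9% with the Has2 virus, in replicates 3 and 4. Loxl1 took 47.2% and 46.9% in those male Has2 libraries, and it was also above Lox in GFP replicates 2, 3 and 4. In the male pairs of replicates 3 and 4 the trend of GC content and length came to -0.45 and -0.47 for Lox and to 0.27 and 0.25 for Loxl1 on the log2 scale, and these shares were computed without removing it. The sum itself ran from 698 CPM per kilobase in Has2 replicate 4 to 1191 in Has2 replicate 2. Loxl4 never exceeded 1.3% of it.

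In level, Lox and Loxl2 were higher in every female library than in any male one: 1610 to 2240 against 830.3 to 1264 CPM for Lox, and 638 to 885 against 482 to 636 CPM for Loxl2. Such a gap was seen for these 2 of the 6 members and for 12.9% of all genes tested. Within the GFP libraries, the male minus female log2 difference was -0.51 for Lox (SE 0.15; edgeR adjusted p = 0.807) and -0.54 for Loxl2 (SE 0.19; edgeR adjusted p = 0.899). That comparison, added after the values were seen, has 2 libraries for each sex, and it called 6 genes, 0.0396% of those tested and 0 of the members.

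Among the cell type markers, calls for the difference between the sexes in the virus effect lay in the fibroblast, macrophage and liver lists. Over all genes tested 29.5% were called for it. Called were 0 of 6 endothelial, 0 of 6 smooth muscle and pericyte, and 0 of 2 tested cardiomyocyte markers. Of 3 tested liver genes 2 were called, where GFP replicate 1 alone held most of these transcripts. Of the 8 fibroblast markers 3 were called lower in males (Ddr2, Lum and Dcn) and of the 8 macrophage markers 4 were called higher and 1 lower, against 11.54% of all genes called higher and 17.97% lower. After removal of the GC and length trend 0 markers of either list were called. Summed macrophage markers overlapped between the groups, at 879 to 2080 CPM in GFP and 824 to 2250 CPM in Has2 libraries. Their part in the Lox difference was not tested, and in such bulk samples fewer cells of a type and less RNA per cell cannot be told apart.

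The genes listed for lysyl oxidase maturation and copper supply showed no called change with the Has2 virus. This list holds the proteases that cleave the Lox precursor (Bmp1, Tll1, Tll2), matrix proteins, the procollagen protease enhancer Pcolce and genes of copper transport. Of its 12 measured genes 0 were called, 8 had positive fold changes, and the median was 0.05. Fibronectin (Fn1), a scaffold for this cleavage, went from 4845 ± 1000 to 6666 ± 1820 CPM (SD, n = 4) and was higher in 4 of 4 pairs (log2 fold change 0.44, SE 0.14; edgeR adjusted p = 0.648). Tll1 stood at -0.49 on the log2 scale (SE 0.20). Periostin (Postn), a matrix protein that binds Bmp1, stood at -0.47 (SE 0.20) and was lower in all 4 pairs. The fall lay in the male pairs: the fitted changes in females and males were -0.02 and -0.96 for Tll1, and -0.03 and -0.91 for Postn.

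For the difference between the sexes 5 of these 12 genes were called, against 29.5% of all genes tested. The copper chaperone Atox1 (0.77) and the procollagen protease enhancer Pcolce (0.42) were higher in males, and the copper pump Atp7a (-1.04), Tll1 (-0.94) and Postn (-0.88) lower. Tll1, Atp7a and Postn have transcripts of 47.1%, 44.6% and 36.3% GC. After removal of the GC and length trend the difference was 0.35 for Postn, its sign turned, and -0.53 for Atp7a. With the trend removed 3 of the 12 were called, against 10.2% of all genes, namely Tll1 (-0.71; edgeR adjusted p = 0.0087), Fbln5 (0.49; 0.0227) and the copper importer Slc31a1 (0.41; 0.0283).

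The substrates of cross-linking gave no call either. Of 8 such genes 0 were called with the Has2 virus, 6 had positive fold changes, and the median was 0.05. Col1a1, the main collagen chain of the heart's matrix, measured 6268 ± 1390 CPM in GFP cultures and 6373 ± 1080 CPM in Has2 cultures (SD, n = 4). The microfibril gene Fbn1 stood at 0.24 on the log2 scale (SE 0.12; edgeR adjusted p = 0.65). For the difference between the sexes 1 of the 8 was called, against 29.5% of all genes. This was elastin (Eln; 0.54; edgeR adjusted p = 0.0273), and it was not called with the trend removed (0.28; 0.241).

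Lysyl hydroxylases (the Plod genes) modify collagen lysines inside the cell before the oxidases act outside it. They were listed with proteins that work beside them on collagen in the endoplasmic reticulum, among them P3h4 and the prolyl isomerase Ppib. Of these 6 genes 0 were called for the virus, with a median of 0.02. For the difference between the sexes 4 of the 6 were called, against 29.5% of all genes. Plod2, which hydroxylates the telopeptide lysines that form stable cross-links, was lower in males (-0.64; edgeR adjusted p = 0.00537), and P3h4 (0.46), Plod3 (0.44) and Ppib (0.40) were higher. Plod2 has the lowest GC content of the 6, 43%, and 0 of the 6 were called with the trend removed, against 10.2% of all genes.

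The other transglutaminase genes were listed with their inactive relative Epb42 and with F13b, the carrier subunit of factor XIII. Of these 9 genes 2 had enough counts to be tested. Tgm1, the keratinocyte enzyme, had 9 to 46 counts per library and a log2 fold change of 0.56 (SE 0.27; edgeR adjusted p = 0.648), and was higher in 4 of 4 pairs. F13a1, the catalytic factor XIII subunit made by macrophages among other cells, had 57 to 342 counts (0.36, SE 0.20; edgeR adjusted p = 0.653). Tgm6 had 0 counts in every library, which allows up to 3 counts, and Tgm3, Tgm4, Tgm5, Tgm7 and Epb42 did not exceed 5. F13b, a liver gene, had 46 counts in GFP replicate 1, the library with liver transcripts, and 0 in the others. Tgm2 had 2617 to 8544 counts per library.

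At the cell surface, transglutaminase 2 works with integrins and syndecan-4 in binding fibronectin, and is taken up through Lrp1. Of the 6 genes of this list 0 were called for the virus, with a median of 0.02. Lrp1 (log2 fold change 0.30, SE 0.13; edgeR adjusted p = 0.648) and Lrp5 (0.22, SE 0.10; 0.648) were higher in 4 of 4 pairs. Itgb1, the integrin beta 1 subunit, was called lower in males (-0.54; edgeR adjusted p = 0.0102) and the galectin Lgals3 higher (0.41; 0.025). These 2 of the 6 compare with 29.5% of all genes, and 0 of the 6 were called with the trend removed, against 10.2%.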

How the data were processed

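One table of raw counts, with a row for each Ensembl gene and a column for each of the 8 libraries, was deposited by the authors. The submitters' processing notes name FastQC 0.10.1, HTSeq 0.10.0 and mouse builds mm39 and GRCm39; for aligner, annotation release and strand setting the sources used here give nothing. Libraries were strand-specific and made from poly(A) RNA, per the labels' protocols. Symbols were matched by identifier to GENCODE M21 (GRCm38) for 52133 of 55414 genes. Counts were tested with edgeR 4.0.16 (R 4.3.3; TMM scaling, default expression filter, quasi-likelihood test, Benjamini-Hochberg adjustment over all genes), which was tested on simulated data. There the virus test recovered 13.4% of 1.5-fold, 61.9% of 2-fold and 100% of 4-fold changes, with 9 false calls. The test of the sex difference recovered 32.8%, 70.1% and 89.2% of these, with 19 false calls. The simulated counts were drawn independently for each gene around the mean of each pair. They held no trend of GC content or length between the viruses, unlike the measured pairs. The rate of false calls in the measured data is therefore not given by them. The replicate number was a block, since the labels give both libraries of a number the same preparation identifier: deviations from group means correlated at 0.58, 0.62, 0.53 and 0.44 within replicates 1, 2, 3 and 4. Log2 CPM used a pseudocount of 2. The trend was a spline of GC content and log2 length (5 degrees of freedom each) fitted in every library and taken as an offset; GC content and length were known for 99.8% of genes tested. Libraries of a group differed beyond sampling noise (chi-square per degree of freedom 45.4 to 368). Alternatives were DESeq2 1.42.0, limma-voom 3.58.1, other scalings and filters, and left-out libraries. The members, lists and tests were chosen with earlier results of these data known. All 6 members were named, with the 2 genes most correlated with each and up to 4 genes of smallest p of each list. Markers, Col1a1 and the list genes called only for the difference between the sexes were named after their values were seen. The changes fitted for each sex and the fit of levels between sexes were added then too.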

Additional observations from a re-analysis of the deposited data

Results flagged for a closer look

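Tgm2 in GFP replicate 2 stood at 127.7 CPM, far above the 55.3 to 65.7 CPM of the other GFP libraries for the size of their spread. Its Has2 partner, at 175.3 CPM, was the highest Has2 library too. Of the 12 groups of 4 libraries looked at, 6 genes with each virus, this was the 1 group with such a value. Chance gives such a value in about 1 of 20 groups, so 1 among 12 can arise by chance. The groups also share libraries.

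The male minus female difference in the virus effect on Lox, -0.81, passed edgeR's test, and was -0.25 with the GC and length trend removed.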

How the results depend on the processing

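Under 23 other ways of processing, 0 of the 6 members were called for the virus effect, and Loxl1, Loxl2 and Loxl3 kept a positive fold change in all of them. The cause of the changes that follow was not tested. With no replicate block the virus effect on Lox was 0.038, and the sex differences were -0.81 for Lox (edgeR adjusted p = 0.18), -0.055 for Loxl4 and -0.043 for Tgm2; the sex difference called 0 members (1 at an unadjusted p under 0.05) and 0 of 15150 genes, where the replicate block gave 4470. With the replicate block and the GC and length trend removed, the virus effect was 0.095 for Lox and -0.029 for Loxl4. The sex differences were then -0.25 for Lox, -0.068 for Loxl1, -0.24 for Loxl4 and -0.21 for Tgm2, with 0 members (0 at an unadjusted p under 0.05) and 1550 genes called. With that trend removed and no block, chosen after seeing the data, the virus effect was 0.13 for Lox and -0.0057 for Loxl4, and the sex differences were -0.26 for Lox, -0.073 for Loxl1, 0.0074 for Loxl2, -0.29 for Loxl4 and -0.30 for Tgm2, with 0 members and 0 genes called (edgeR; 0 members and 934 genes at an unadjusted p under 0.05).

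DESeq2 with no block gave a virus effect of 0.056 for Lox, sex differences of -0.065 for Loxl4 and -0.058 for Tgm2, and 7 and 675 genes called for the virus and the sex difference, with Lox called for the latter (DESeq2 adjusted p = 0.0209). DESeq2 with the block called 61 genes for the virus, the absence of a filter 118, and library totals 0 (1110 at an unadjusted p under 0.05). The sex difference of Loxl4 was -0.038 with library totals, -0.022 without the filter, -0.014 with at least 1 CPM in 4 libraries and -0.00055 with limma-voom.

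Leaving out both libraries of 1 replicate number, or single libraries with no block (a lone library is then assumed to vary like the others), gave virus effects of -0.27 to 0.24 for Lox, -0.13 to 0.18 for Loxl4 and -0.13 to 0.67 for Tgm2, with 0 to 1 genes called. The sex differences ran from -0.95 to -0.65 for Lox, -0.045 to 0.59 for Loxl1, -0.23 to 0.16 for Loxl2, -0.062 to 0.56 for Loxl3, -0.43 to 0.41 for Loxl4 and -0.77 to 1.01 for Tgm2, with 0 to 1 members and 0 to 4972 genes called. With the replicate block kept, 0 genes were called for the virus without replicate 1, and 2658 and 2353 for the sex difference without replicates 3 and 4. For the sex difference Lox was called in 12 of the 23 other ways of processing and not called in 11. Its sign was negative in all 23. Without replicates 1, 2, 3 and 4 in turn, with the block kept, the Lox difference was -0.95, -0.65, -0.88 and -0.71. Each of these fits leaves 1 pair of the sex concerned. Merged exons in place of the longest transcript moved no level beyond its SD, with Tgm2 at 19.0 CPM per kilobase. Depth was no limit for the members, which had at least 1197 counts in every library.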
